A study of Mus musculus with 18 samples.

Results

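Circular RNAs form when the spliceosome joins a donor splice site to an acceptor site that lies upstream of it, a reaction called back-splicing, so that one or more exons close into a ring without free ends. Such rings lack a cap and a poly(A) tail, resist exonucleases and can outlast the linear mRNA of the same gene. The gene they come from is called the host gene, and its circular and linear RNA start from the same precursor transcript. The testis, where germ cells pass through meiosis and then reshape into sperm, is one of the tissues in which circular RNAs are readily found.

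The values described here are those of 8 host genes with high circle counts, namely Bbs9, Tulp4, Strbp, Tasp1, Scaper, Sp1, Gbe1 and Crebrf. Their members are the circles of the deposited circular RNA table that carry the identifier of one of these genes as their source, with the row of each host in the mRNA table beside them. There were 99 such circles of 7391 in the table, and 8 hosts of 3075 genes with a circle. The hosts were chosen by their circle counts in these same libraries, so their abundance is a description and no test was made of it. The choice was not strictly the highest 8: summed over all libraries, the hosts ranked 1, 3, 4, 6, 7, 9, 10 and 11, and Ep400, Usp32 and Dnah7a lay among them with 1942, 962 and 878 counts. The lowest host inside, Crebrf, had 675 counts, and the next hosts outside were Dnah8 with 663 and Rfx3 with 646.

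RNA came from whole frozen testes of C57BL/6 mice, 3 libraries with the wild-type Taf7l gene (labelled TWT) and 3 with a Taf7l knock-in allele (TKI, spelled "konckin" in the labels). Libraries were made with a stranded kit for total RNA. Taf7l lies on the X chromosome, is active in germ cells and resembles Taf7, which belongs to the TFIID complex that recruits RNA polymerase to promoters. The edit carried by the allele, the age of the mice and whether libraries came from separate animals are not given in the labels, so the p-values rest on the spread from library to library alone, which may in part be technical. Isolated spermatocytes and spermatids of the same study were not analysed here.

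Libraries held 14381 to 20127 circle counts and 17431309 to 21446420 counts of mRNA genes, and 775 to 938 circle counts per 1000000 mRNA counts. Taf7l itself was counted 507, 551 and 531 times in wild-type testes and 472, 525 and 581 times in knock-in testes, which does not check the labels because the allele need not alter the level of its transcript. The tissue label was matched by the level of its markers: germ-cell genes were abundant, with summed levels of 15912 to 18749 FPKM for 10 elongating spermatid genes and of 3497 to 3853 FPKM for 12 spermatocyte genes. Epididymis genes were low but not absent: 2 of 6 were at 0 in each library, and the list summed to 4.02 to 15.8 FPKM. Of the marker lists, elongating spermatid genes had 2 of 10 called, Prm2 and Smcp, and round spermatid genes 1 of 10, Spaca4, all higher in knock-in testes, where edgeR called 0.982% of all genes in either direction. These calls were kept in 2, 1 and 1 of the 6 fits that left out 1 library. DESeq2 called 4 and 2 genes of these lists, against 2.91% of all genes, and Prm1 of the first list had a log2 fold change of -0.31 ± 0.12, which edgeR did not call (adjusted p = 0.303). None of 6 peritubular myoid genes was called by edgeR and 2 were by DESeq2, Myh11 and Myl9, while 4 of them had an unadjusted p under 0.05 (12.9% of all genes). The list median was 0.31 on the log2 scale, with summed levels of 75.5 to 91.3 FPKM in wild-type testes and 89.2 to 107 in knock-in testes. Of 8 Leydig genes edgeR called 0 and DESeq2 called 1, Cyp11a1, with a list median of 0.07. The 5 erythrocyte genes tested had a median of 0.37, with 0 called by either. The part of these shifts in the values that follow was not tested, and in whole tissue fewer cells of a type and less RNA per cell cannot be told apart.

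The tables give circles by position, without sequence. A stretch of 30 bases shows where the most abundant single circle of these hosts lies. It is from within the one-exon circle of Tulp4 (mm10 chr17:6137211-6139156, plus strand, 1946 bases). RefSeq, on GRCm38.p6, the assembly also called mm10, places an annotated start of Tulp4 at base 938 of that circle. The stretch covers chr17:6138133-6138162, with the bases from the annotated start onward in capitals.
Tulp4 circle exon: gagggtggttccagcCCATGGAGGAGTCAT

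Circular and linear RNA of a host come from the same precursor, and the 8 hosts spanned a wide range of linear levels. Bases before the first annotated start are shown for the hosts with the highest and the lowest linear level, 94 bases of Bbs9 (chr9:22475465-22475558, plus strand) and 250 of Gbe1 (chr16:70313699-70313948, plus strand), from RefSeq on GRCm38.p6. Capitals mark the GC box GGGCGG or its reverse complement CCGCCC, the element that Sp1 is known to bind.
Bbs9 promoter: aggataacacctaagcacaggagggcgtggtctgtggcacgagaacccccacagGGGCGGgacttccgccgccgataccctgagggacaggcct
Gbe1 promoter: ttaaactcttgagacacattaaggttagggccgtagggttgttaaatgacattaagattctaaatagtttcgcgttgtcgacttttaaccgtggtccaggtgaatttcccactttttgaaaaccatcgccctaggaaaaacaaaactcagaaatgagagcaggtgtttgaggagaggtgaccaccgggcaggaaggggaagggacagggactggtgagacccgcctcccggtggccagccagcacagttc
The stretch of Bbs9 held 1 GC box and that of Gbe1 0. Motifs were then counted in windows of 250 bases before each annotated start. All 8 hosts matched a RefSeq window, 11 windows in all, because Strbp, Scaper and Tulp4 have 2 windows each. Several windows run past the RefSeq start of their gene. That of Bbs9 (chr9:22475465-22475714) runs past the gene start at 22475559 and holds 2 GC boxes. GGGCGG on either strand was present in 6 of the 11 windows, those of Bbs9, Crebrf, Scaper, Sp1, Strbp and Tulp4, against 32.7% of 32851 windows of the same length. The E box CACGTG, which reads the same on both strands, was present in 5 of the 11 windows, those of Crebrf, Scaper, Strbp, Tasp1 and Tulp4, against 6.02% of all windows. CCAAT on either strand was present in 5 of the 11 windows, against 33.8% of all. The motifs were picked with these windows in view, and in the 11 windows 1 pair of matches to different motifs overlapped. A match is a description of these letters and not a site of binding.

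Together the 8 hosts held 9107 of 98762 circle counts, 9.22%. The share was nearly the same in every library, 9.30%, 9.14% and 9.07% in wild-type testes and 9.19%, 9.38% and 9.21% in knock-in testes. Levels of circles are given as RPM, circle counts relative to all circle counts of that library, summed over the circles of a host. They say nothing of the amount of circular RNA in the cell as a whole.

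Bbs9 encodes a subunit of the BBSome, the complex that carries membrane proteins into and out of cilia and that sperm flagella also need. Its circles stood highest, at 20166, 18497 and 15264 RPM in wild-type testes and 22614, 22569 and 22656 RPM in knock-in testes. The knock-in libraries lay above all wild-type libraries and nearly on one value. Their coefficient of variation was 0.193%, below the 5.44% that counting alone gives at the mean count of all 6 libraries. Bbs9 ranked between 1 and 3 in each library.

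Tulp4, a tubby-like protein with a SOCS box of the kind that recruits ubiquitin ligases, had 14966, 17662 and 15125 RPM in wild-type testes and 14581, 15291 and 13067 RPM in knock-in testes. Strbp, a double-stranded RNA binding protein of spermatids, had 14908, 14324 and 16860 RPM and then 12419, 13456 and 13465 RPM. The means of these hosts over all libraries, 15115 and 14239 RPM, lay within the spread of either one. Strbp libraries of the knock-in lay below all wild-type libraries, and those of Tulp4 overlapped.

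Tasp1 encodes a protease that cleaves the methyltransferase Kmt2a and the large TFIIA subunit, steps needed for chromatin regulation and for transcription in spermatids. Its circles had 10748, 8414 and 9922 RPM in wild-type testes and 10627, 9725 and 8496 RPM in knock-in testes. Scaper, a protein of the endoplasmic reticulum that binds cyclin A, had 10170, 10083 and 8881 RPM and then 8526, 8502 and 10881 RPM. In both hosts the genotypes overlapped.

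Sp1, a zinc-finger transcription factor of GC-rich promoters, had 8552, 12030 and 9991 RPM in wild-type testes and 8032, 7890 and 7552 RPM in knock-in testes, so that the knock-in libraries were the lowest. Gbe1, the branching enzyme of glycogen synthesis, had 7223, 5632 and 7771 RPM and then 7847, 8196 and 8695 RPM. Crebrf, a regulator of the CREB3 family of stress-related transcription factors, had 6298, 4798 and 6869 RPM and then 7291, 8135 and 7304 RPM. In Gbe1 and Crebrf the knock-in libraries were the highest, in Gbe1 by a gap far smaller than the wild-type SD of 1111 RPM. Between neighbours in the order from Tasp1 to Sp1 (means of 9655, 9507 and 9008 RPM) the levels differed by less than the SD between wild-type libraries of either neighbour, and so did those of Gbe1 and Crebrf (7561 and 6782 RPM).

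**Figure D1:**
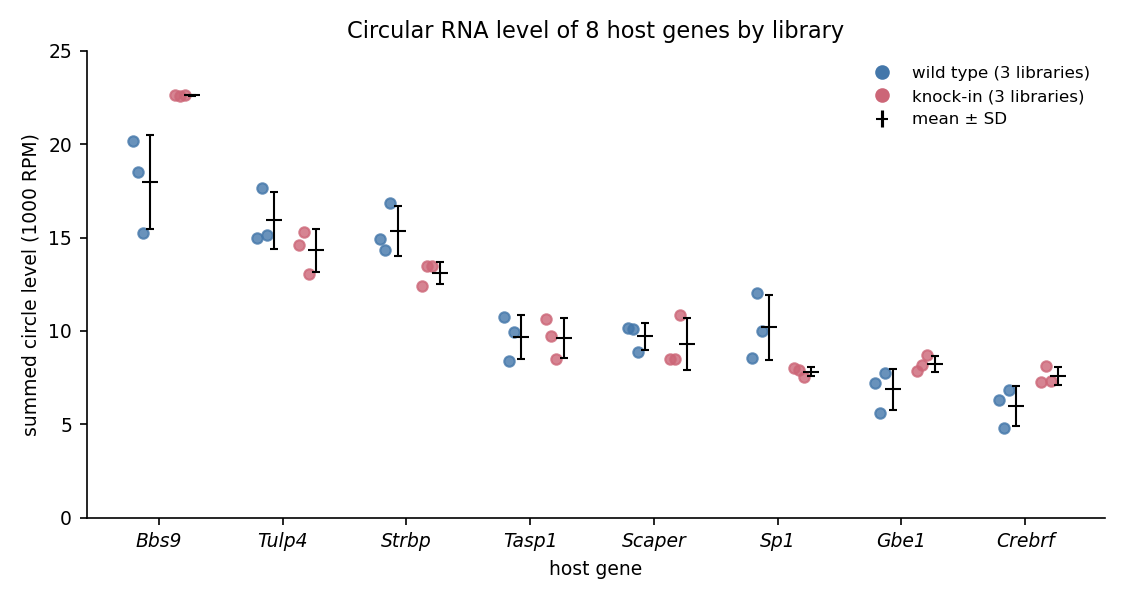
Summed circle level in units of 1000 RPM (y axis) of the 8 host genes (x axis), 1 point per library, with mean and SD beside the points for 3 wild-type (blue) and 3 knock-in (red) libraries. Bbs9 stands highest, with the knock-in libraries between 22569 and 22656 RPM, and Crebrf lowest, from 4798 to 8135 RPM.

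Most hosts spent their circle counts on 1 or 2 rings. Of the 99 circles, 50 had under 10 counts over the 6 libraries, 34 were seen in all 6 and 72 in at least 3. The 14 circles with at least 100 counts held 7846 of the 9107 counts. The authors' annotation classes 82 of the 99 as made of annotated exons, 16 as reaching into introns and 1, the Tulp4 circle, as a single exon. Those 16 held 81 counts, 0.889% of the members' total. Of all circles in the table, 78.5% were of annotated exons and 10.2% reached into introns. The 3 circles that extend past the RefSeq ends of their host, 2 of Bbs9 and 1 of Scaper, had 7, 4 and 4 counts.

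Sp1 was the most concentrated host. It had 4 circles, all from the same acceptor site, and 1 of them (chr15:102407772-102430987, plus strand, 2294 spliced bases) held 825 of 876 counts, 94.2%. That circle had 140, 158 and 138 counts in wild-type testes and 120, 126 and 143 in knock-in testes. Scaper came next: its circle of 642 bases (chr9:55807013-55816809, minus strand) held 755 of 945 counts, 79.9%, and the other 20 circles of the host shared the rest. It was counted 147, 113 and 102 times in wild-type testes and 105, 118 and 170 times in knock-in testes.

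In Gbe1 the circle of 1309 bases (chr16:70401734-70495399, plus strand) held 591 of 754 counts, 78.4%, as 98, 67 and 87 counts in wild-type testes and 94, 106 and 139 in knock-in testes. In Tulp4 the one-exon circle held 1150 of 1480 counts, 77.7%, as 207, 193 and 175 counts and then 172, 198 and 205. The share of that circle in its host ran from 72.9% to 80.3% over the libraries, so the same circle led in each. A longer Tulp4 circle of 2237 bases, with the same acceptor and a donor farther downstream, had 160 counts.

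Bbs9, Strbp, Tasp1 and Crebrf divided their output. In Bbs9 the first circle took 50.1% and the second 33.9%. Strbp gave 57.5% to a circle of 6168 bases (chr2:37580673-37647285, minus strand, 804 counts) and 26.7% to one of 1708 bases (374 counts). Tasp1 gave 52.7% to a circle of 471 bases (chr2:140008699-140057499, minus strand, 502 counts) and 29.6% to one of 350 bases (282 counts). Crebrf was divided most evenly, with 42.8% in a circle of 1216 bases (chr17:26739543-26743131, plus strand, 289 counts) and 40.7% in one of 1411 bases (chr17:26736789-26743131, 275 counts). The order of the Crebrf pair differed between libraries: the first had 47, 27 and 37 counts in wild-type testes and the second 37, 33 and 46, and in knock-in testes they had 43, 68 and 67 against 51, 54 and 54.

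**Figure D2:**
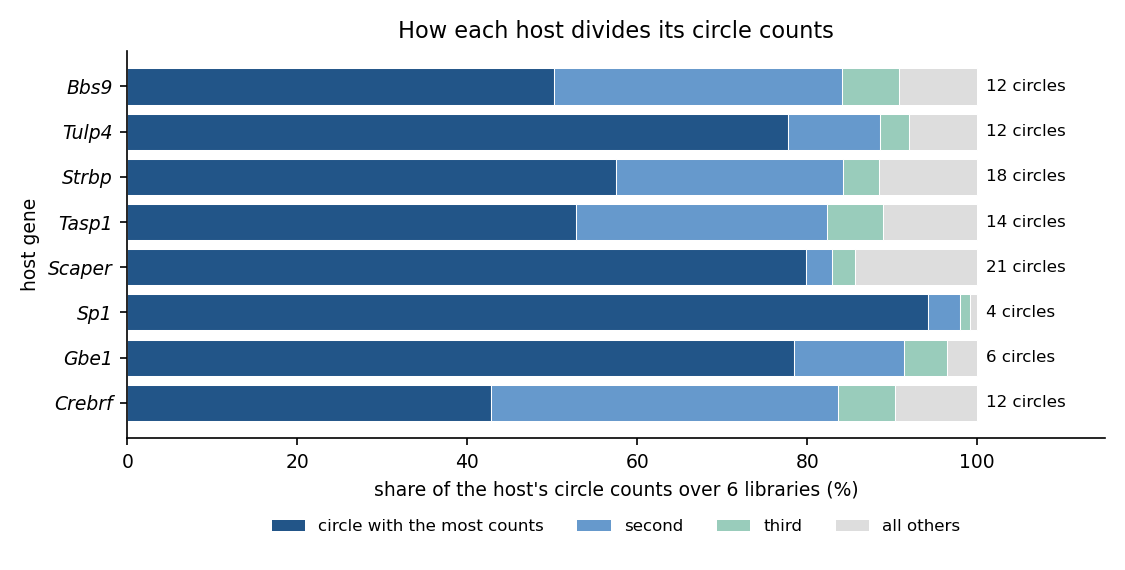
Share of each host's circle counts over 6 libraries in percent (x axis) for the 8 host genes (y axis), split into the circle with the most counts, the second, the third and all others, with the number of circles at the right. The first segment runs from 42.8% in Crebrf to 94.2% in Sp1.

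In each of the 8 hosts most circle counts fell on a shared splice site. The same held outside the 8 for Ep400 (98.1% at its most used site), Dnah7a (96.1%), Usp32 (95.8%) and Rfx3 (81.7%), but not for Dnah8 (34.7%). In Ep400, Dnah7a, Usp32 and Rfx3 most of these were counts of 1 circle (91.3%, 92.0%, 91.3% and 75.5% of the host). In Bbs9, 3 circles start at the same acceptor (chr9:22643745) and end at different donors, and together they held 90.8% of the host's counts. Their spliced lengths were 477, 650 and 803 bases, and their counts 687, 136 and 1016. The middle ring, which adds 173 bases to the shortest and lacks the last 153 of the longest, was thus the least used. In Tasp1, 8 circles from 1 acceptor (chr2:140057499) held 96.8% of counts, and in Strbp 10 circles from 1 acceptor (chr2:37647285) held 94.1%. Sp1 used 1 acceptor (chr15:102407772) for all its circles, Gbe1 had 92.6% of counts at 1 (chr16:70401734) and Tulp4 92.1% (chr17:6137211). In Sp1, Gbe1 and Tulp4 most of these counts were those of the main circle.

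In Crebrf the site used most was a donor. There 6 circles ended at the donor chr17:26743131 and held 88.3% of counts. In Scaper the donor chr9:55807013 held 82.3% and the acceptor chr9:55816809 81.0%, both through the main circle. The distance from the shared site did not order the counts. Beside its main circles, Strbp had circles to nearer and to intermediate donors with 2 to 59 counts each. Lengths added up in blocks: in Gbe1 the same 626 bases separated the circle of 683 bases from that of 1309 and the circle of 563 from that of 1189, and the same 120 bases separated 563 from 683 and 1189 from 1309. The spliced lengths are the authors', from annotated exons, and the inside of a circle was not measured here. Of the 99 circles 12 carry an identifier of the circBase catalogue in the deposited table, among them the main circles of Tulp4 and Crebrf but not those of the other 6 hosts. In Tulp4 and in Crebrf the same identifier stands beside several circles with different ends. It therefore does not show that a given circle is in the catalogue.

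**Figure D3:**
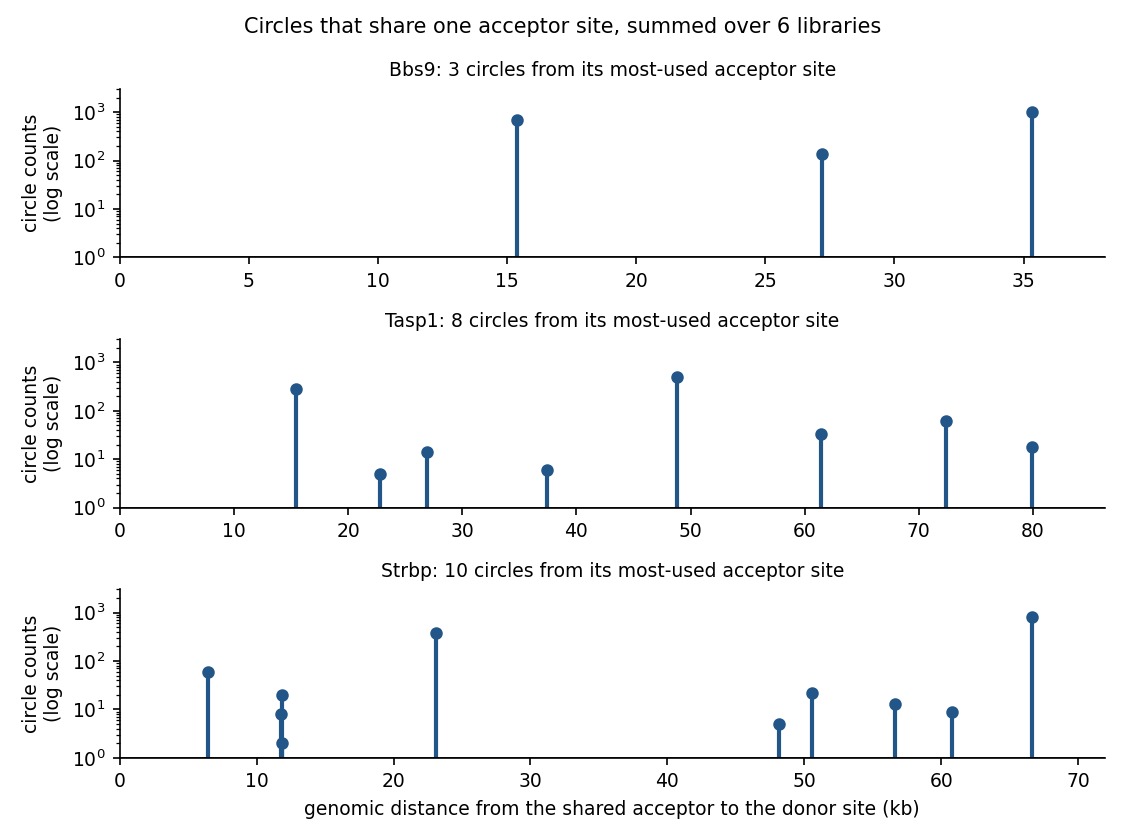
Circle counts summed over 6 libraries (y axis, log scale) against the genomic distance in kb from the shared acceptor to each donor (x axis) for Bbs9, Tasp1 and Strbp, 1 stem per circle. The tallest stem is the third of 3 in Bbs9 (1016 counts), the fifth from the left in Tasp1 (502) and the last in Strbp (804).

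The linear levels of the hosts lay far apart, while their circle levels are close to each other because the hosts were chosen by them. In the mRNA table, means over the 6 libraries were 107 FPKM (fragments relative to transcript length and library depth) for Bbs9, 93.7 for Tulp4, 68.9 for Strbp and 45.3 for Crebrf. They were 18.2 for Tasp1, 11.8 for Sp1, 5.19 for Scaper and 0.413 for Gbe1. Circle levels of the same hosts lay within 6782 and 20294 RPM. Across the 656 hosts with at least 30 circle counts, Spearman's rho between mean circle RPM and mean FPKM was 0.02 (across genes, which share libraries and are not independent replicates). The cut at 30 counts is on the circle level itself, so this rho says nothing of genes with fewer circle counts or none. The 5 most similar hosts by circle count span linear levels too, from 8.16 FPKM in Dnah7a to 272 in Dnah8.

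Gbe1 is the extreme case. Its mRNA row had 26, 6 and 26 counts in wild-type testes and 30, 25 and 90 in knock-in testes, while its circles had 125, 81 and 112 and then 127, 134 and 175 counts. The circles were thus counted 754 times and the gene 203 times. Only 6 of the 656 hosts had more circle counts than mRNA-table counts, the others being Ins2, Ugt2b34, Abca16, Gm5724 and Gm29427, named after their values were seen. Per FPKM, Gbe1 had 18292 circle RPM, Scaper 1831 and the remaining 6 hosts between 150 and 763. The median over the 656 hosts was 44.6. The hosts were chosen by high circle counts, which enter this ratio, so their place above the median is no finding. Of the most similar hosts outside the 8, Ep400 with 205, Usp32 with 150, Rfx3 with 323 and Dnah7a with 1094 also lay above it. Dnah8 with 24.6 lay below it. Whether reads from inside a circle enter the row of the gene in the mRNA table is not given in the sources used here, so a ratio of the tables is not a ratio of molecules.

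**Figure D4:**
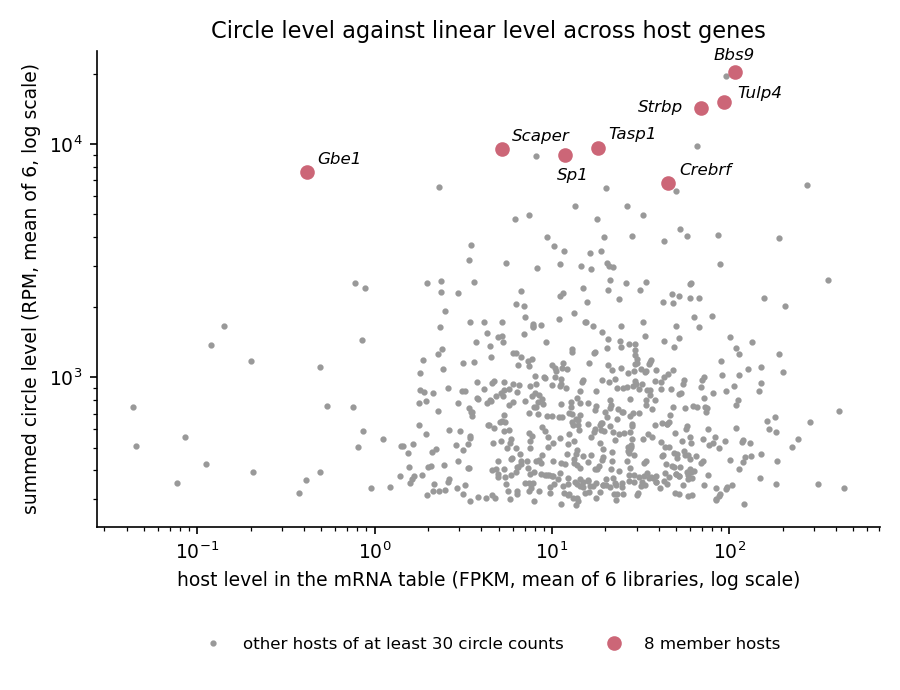
Summed circle level in RPM (y axis, log scale) against the host's FPKM in the mRNA table (x axis, log scale), each a mean of 6 libraries, for 656 hosts of at least 30 circle counts, with the 8 member hosts in red. Gbe1, at 0.413 FPKM and 7561 RPM, stands apart at the upper left, and Bbs9 is the topmost point.

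The comparison of genotypes asks whether circles, linear RNA or their ratio differ in knock-in testes, with all fold changes given as knock-in over wild type. No circle was called at an adjusted p under 0.05: edgeR's quasi-likelihood test called 0 of 3887 circles (0%), 191 or 4.91% had an unadjusted p under 0.05, DESeq2 called 0 as well, and the authors' deposited table lists 0 of 7391. Of the members 72 circles passed the filter of at least 3 libraries above 0. Among these 9 had an unadjusted p under 0.05, 12.5%. They were 6 circles higher in knock-in testes, where 2.75% of all circles tested were, and 3 lower, where 2.16% were. Among the 6 is a Scaper circle with 0, 0 and 0 counts in wild-type testes and 1, 1 and 3 in knock-in testes. It passed the filter only through the knock-in libraries, so the filter fixed its direction. Circles with many counts reach small p-values more easily: of all 105 circles with at least 100 counts 17 or 16.2% did so. These include 5 of the 14 members of that size. The genotypes did not overlap, on TMM-scaled counts, for 14 of the 72 members, that Scaper circle among them, against a background of 10.7%. They did not for 6 of the 14, against 20 or 19% of the 105, which include the 14.

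The longest of the 3 nested Bbs9 circles (chr9:22643745-22679064, 803 bases) had the lowest unadjusted p of the members. It had 166, 117 and 107 counts in wild-type testes and 188, 188 and 250 in knock-in testes. All knock-in libraries were above all wild-type libraries, at 11845 ± 502 RPM against 8384 ± 1105 RPM (SD, n = 3 each). This is a log2 fold change of 0.52 ± 0.16 (SE; edgeR, unadjusted p = 0.000845, adjusted p = 0.979), so it was not called. Over the alternatives the adjusted p ran from 0.072, with filterByExpr, to 0.999, and it was 0.257 with no filter. The authors' deposited table gives it a log2 fold change of 0.50 and an adjusted p of 0.268, the lowest of all circles in that table, where every other circle stands at 1.

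The shortest Bbs9 circle of this nest had 113, 95 and 75 counts and then 136, 116 and 152, a log2 fold change of 0.35 ± 0.17. The middle one went the other way, with 34, 30 and 18 counts in wild-type testes and 18, 19 and 17 in knock-in testes, a log2 fold change of -0.75 ± 0.31 (edgeR, unadjusted p = 0.0154, adjusted p = 0.979). Its share of Bbs9 circle counts was 9.74%, 11.3% and 8.18% in wild-type testes and 4.92%, 5.15% and 3.73% in knock-in testes, groups that did not overlap. A test of the share of each circle within its host (edgeR's diffSpliceDGE, chosen after seeing the data) gave this circle an unadjusted p = 0.00193 and an adjusted p = 0.999. It called 0 of 2729 circles (0%), with 69 or 2.53% at an unadjusted p under 0.05. Of the 72 members 3, 4.17%, were below that value, among them the Scaper circle that passed the filter only through knock-in libraries.

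Other circles of at least 100 counts with an unadjusted p under 0.05 were the main Sp1 circle (log2 -0.34 ± 0.16) and the shorter main circle of Crebrf (0.51 ± 0.22). The main circles of Tulp4 (-0.17 ± 0.15), Strbp (-0.31 ± 0.16), Tasp1 (-0.06 ± 0.18), Scaper (-0.06 ± 0.16) and Gbe1 (0.25 ± 0.17) were above it. Among circles with fewer counts, a Bbs9 circle near the end of the gene had 11, 8 and 4 counts in wild-type testes and 12, 30 and 16 in knock-in testes, and a Strbp circle of 557 bases had 5, 2 and 8 and then 12, 17 and 15. These last 2 were picked after their values were seen.

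Summed per host, 0 of 1925 hosts were called (0%), with 90 or 4.68% at an unadjusted p under 0.05 by edgeR and 0 calls by DESeq2. Of the 8 hosts 3 were below that value: Bbs9 with a log2 fold change of 0.33 (95% interval 0.10 to 0.57), Crebrf with 0.34 (0.01 to 0.66) and Sp1 with -0.37 (-0.67 to -0.08), and none of them passed adjustment (edgeR, adjusted p = 0.958 each). Of all 23 hosts with at least 400 counts, these 8 included, 5 or 21.7% were below it. The other 5 were Gbe1 at 0.26, Strbp at -0.23, Tulp4 at -0.15, Scaper at -0.06 and Tasp1 at -0.02. The genotypes did not overlap on TMM-scaled sums for 6 hosts, all but Tasp1 and Scaper, against 11.1% of all hosts. Of the 23 hosts with at least 400 counts it was 7 or 30.4%. Those 23 include the 8, which make up most of that share. For Tulp4 they overlapped on the RPM scale.

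Of 15787 genes in the mRNA table edgeR called the 0.982% given above, 155 genes, and none of the 8 hosts was among them, while 2 had an unadjusted p under 0.05, against 12.9% of all genes. DESeq2 called 1 of them, Sp1, where it called 2.91% of all genes. TMM-scaled counts of the genotypes did not overlap for 2 of the 8, against 18.5% of all genes. Sp1 had 14.5, 12.8 and 10.5 FPKM in wild-type testes and 12.5, 9.61 and 10.9 in knock-in testes. FPKM overlapped, but TMM-scaled counts did not. The log2 fold change by edgeR was -0.31 ± 0.08 (SE, adjusted p = 0.141; DESeq2, adjusted p = 0.0344). Over all alternatives the adjusted p of Sp1 ran from 0.0344 to 0.617. The authors' deposited table gives Sp1 a log2 fold change of -0.20 and an adjusted p of 0.0349, in a table where 2% of genes pass. Crebrf had 48.9, 46.4 and 49.6 FPKM and then 43.4, 43.2 and 40.3, with every knock-in library below every wild-type library and a log2 fold change of -0.20 ± 0.06 (edgeR, adjusted p = 0.197). Bbs9 (0.04 ± 0.05), Strbp (0.03 ± 0.05), Tulp4 (-0.00 ± 0.05) and Tasp1 (0.05 ± 0.12) were near 0. Scaper had 0.28 ± 0.16, and Gbe1 1.17 ± 0.56, which was 0.46 without knock-in library 3, the source of 90 of its 203 counts, and 0.73 without wild-type library 2.

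Circle counts relative to linear counts were compared for the 656 hosts with at least 30 circle counts (limma on the log2 ratio). The test called 0 hosts (0%), and 38 or 5.79% had an unadjusted p under 0.05, among them 3 of the 8. For Crebrf there were 35.3, 23.6 and 34.3 circle counts per 1000 mRNA-table counts in wild-type testes and 43.4, 50.5 and 50.3 in knock-in testes, without overlap. The log2 difference was 0.56 ± 0.18 (SE; limma, unadjusted p = 0.00596, adjusted p = 0.745), as its circles lay higher and its linear row lower in knock-in testes. For Bbs9 there were 101, 79.8 and 68.0 and then 106, 104 and 113, also without overlap, a log2 difference of 0.31 ± 0.12. The ratios did not overlap for 3 of the 8 hosts, the third being Strbp (-0.25 ± 0.12), against 12.3% of the 656 hosts. The 656 reach down to 30 circle counts, and no share was taken for hosts with counts as high as these 8. Gbe1 had -0.94 ± 0.37, which was -0.48 without knock-in library 3 and -0.39 without wild-type library 2. In Sp1, circle and linear values were lower together, and the ratio differed by -0.05 ± 0.16.

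**Figure D5:**
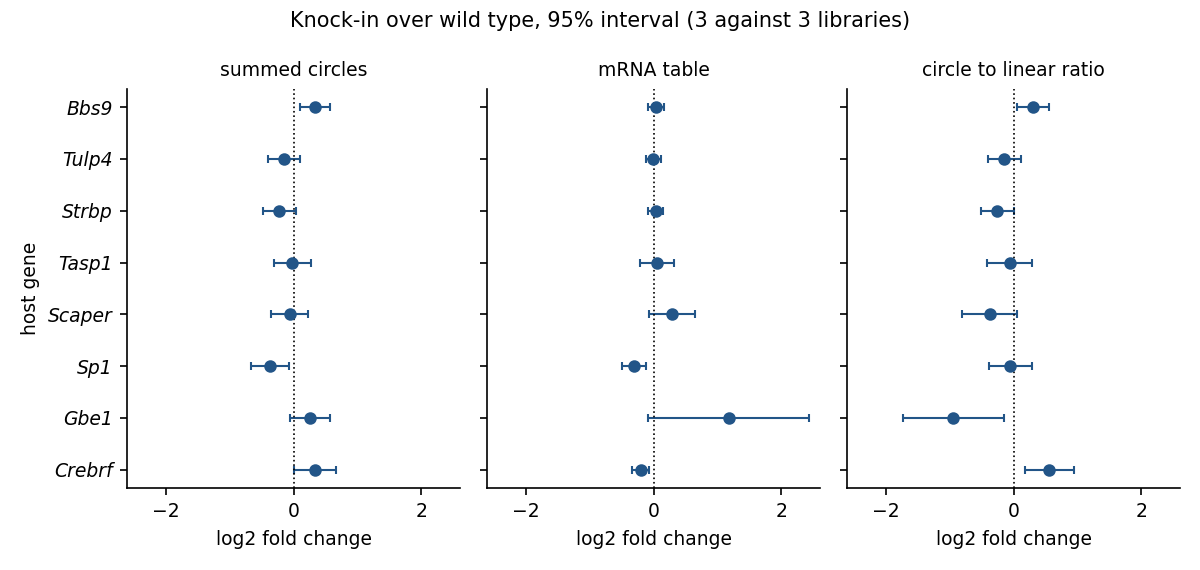
Log2 fold change of knock-in over wild type (x axis) with 95% intervals from 3 against 3 libraries, for summed circles, the mRNA table and the circle to linear ratio of each of the 8 host genes (y axis). Intervals of the summed circles lie above 0 in Bbs9 and Crebrf and below 0 in Sp1, none passes adjustment, and Gbe1 has the widest linear interval.

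The noncoding table holds 13 transcripts with the symbol of a host, 7 of them of Tulp4, 3 of Strbp, 2 of Bbs9 and 1 of Scaper. Such transcripts overlap the coding gene, and the treatment of reads that fit both is unknown, which makes single values uncertain. Of 9301 transcripts tested 9 were called, 0.0968%, and none was among the 7 tested here (edgeR, a test chosen after seeing the data, with 8.97% of all at an unadjusted p under 0.05 and 1 of the 7). One Tulp4 transcript of low count (ENSMUST00000144124) had 35, 26 and 33 counts in wild-type testes and 65, 101 and 75 in knock-in testes, higher by 1.28 ± 0.25 on the log2 scale (SE; edgeR, adjusted p = 0.138). The most abundant one (ENSMUST00000152672) had 1090, 1046 and 1001 counts and then 1020, 1005 and 1055, a log2 fold change of -0.11 ± 0.07.

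Genes that act with the hosts gave few calls, read against 0.982% of all genes called and 0.88% called higher. Of 42 measured genes of circle formation and turnover 1 was called, Hnrnpm, a splicing regulator, at 19.8 ± 1.44 FPKM in wild-type testes and 25.1 ± 0.246 in knock-in testes (SD, n = 3 each; log2 0.33 ± 0.06 SE, edgeR, adjusted p = 0.0442). The list median was 0.03, against 0.00 over all genes, and 4 of 42 had an unadjusted p under 0.05. Of 8 tested tubby-like proteins and ubiquitin ligase partners 2 were called higher. Tulp2, a tubby-like protein of the testis, rose from 358 ± 7.15 to 432 ± 7.38 FPKM (log2 0.28 ± 0.05), and Elob, which links SOCS boxes to cullins, from 199 ± 16.0 to 259 ± 3.25 (0.36 ± 0.07). The list median was -0.01, and 4 of the 8 had an unadjusted p under 0.05 by edgeR, against 12.9% of all genes. Of these, Tulp3 (-0.24 ± 0.10) and Cul5 (-0.17 ± 0.06) were lower in knock-in testes and were not called. The calls of Hnrnpm, Tulp2 and Elob were each lost in all 6 fits that left out 1 library.

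In the remaining lists edgeR called 0 genes, and members at an unadjusted p under 0.05 are to be read against 12.9% of all genes. Of 15 genes of the BBSome and its partners 1 had an unadjusted p under 0.05 (median -0.04), with the most abundant members after Bbs9 being Lztfl1 at 0.02 ± 0.07 and Bbs5 at -0.05 ± 0.07 on the log2 scale. Of 12 Sp and KLF factors 1 had one, Sp1 itself (median 0.08, Klf4 at 0.11 ± 0.07 and Sp3 at 0.01 ± 0.07). Of 19 glycogen genes tested 1 had one (median 0.01, Phkg2 at -0.08 ± 0.07). The Taspase 1 list holds substrates and related genes. Of its 8 genes 1 had one, Kmt2d, a related gene (median 0.00, Gtf2a1l at -0.04 ± 0.06). Of 7 in the list of the CREB3 family, with Crebrf among them, 3 had one, Crebrf and Creb3 with values below 0 and Creb3l1 above (median -0.01, Creb3l4 at 0.02 ± 0.06). Of 6 in the Scaper list, which holds Scaper itself, A and E cyclins and Cdk2, 1 had one (median 0.18, Ccna1 at 0.10 ± 0.08). DESeq2 called Sp1 and, in the Taspase 1 list, the methyltransferase gene Kmt2d (edgeR, log2 0.26 ± 0.06), and no other gene of these 6 lists.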

How the data were processed

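Strand-marked total RNA libraries of 6 whole testes samples were compared, 3 against 3. The deposited tables hold whole-number counts per circle, gene and noncoding transcript as the authors made them. The authors also deposited FPKM for genes and noncoding transcripts, RPM for circles, and a log2 ratio, p-value and adjusted p-value per feature. Per the submitters' processing notes the genome was mm10. No source used here names the aligner, circle caller, counter or use of strand.

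Counts were tested with edgeR 4.0.16 (quasi-likelihood, TMM, two-sided, Benjamini-Hochberg over all features tested, called at an adjusted p under 0.05; limma 3.58.1, R 4.3.3). Circles and host sums needed at least 3 libraries above 0, and genes passed filterByExpr (minimum count 10, minimum total 15). The ratio test used limma with trend on log2 values with 0.5 added to both counts. DESeq2 1.42.0 and limma on log2(FPKM + 0.1) were alternatives, beside other filters, scalings, a replicate block and leaving out each library. Scripts were tested on simulated data. The common coefficient of variation between libraries was 43.3% for circles, 30.7% for host sums and 11.1% for genes, so circles are the least precise. No library repeated another (chi-square per degree of freedom from 1.66 to 1.89 in circle counts of 1 genotype).

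All 8 hosts and their circles of at least 100 counts are named, with list members that were called or else the most abundant ones. The hosts and gene lists were chosen with earlier results of these data known.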

Additional observations from a re-analysis of the deposited data

How the results depend on the processing

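Depth limits single circles most, since 50 of the 99 had under 10 counts. No circle of at least 100 counts and no circle sum of the 8 hosts was called under any setting tried. The number of called genes in the mRNA table was 460 by DESeq2, 251 by limma on FPKM, and from 11 to 125 without 1 library. Without knock-in replicate 2, 1 circle was called, none of these hosts, and fits of that kind gave 0 to 1. For noncoding transcripts they gave 6 to 15, the latter without knock-in replicate 3. The labels do not say that the replicate numbers pair the libraries. Deviations of same-numbered libraries correlated by 0.12, 0.06 and 0.05 in the mRNA table, where each library correlated best with its own number. In circles they correlated by -0.06, 0.09 and -0.05. Correlations this weak do not decide whether the libraries are paired. With the replicate block, circles, host sums and ratios had 0 calls and genes 178.

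Of 242 log2 values under the other settings and 294 with 1 library left out, 10 and 28 changed sign, none of them a called value or above 0.17 in size, and the cause was not tested. The Tasp1 circle of 350 bases was at 0.017 with no filter, 0.0237 with filterByExpr, 0.0453 scaled to the mRNA total and 0.0022 with the replicate block, and the Scaper main circle at 0.0049 scaled to the mRNA total. Summed circles scaled that way gave 0.0561 for Tasp1 and 0.0282 for Scaper, and sums of circles of at least 10 counts gave 0.0062 for Tasp1. Ratios without correction by table totals were 0.026 for Tasp1 and 0.0353 for Sp1. With 1 library left out, circles ran from -0.139 to 0.11 (Scaper main), -0.174 to 0.152 (Tasp1 main), -0.0195 to 0.166 (Tasp1, 350 bases) and -0.0025 to 0.32 (Tulp4, 2237 bases). Sums ran from -0.0898 to 0.127 (Tasp1) and -0.19 to 0.0419 (Scaper), mRNA values from -0.0296 to 0.0103 (Tulp4) and -0.071 to 0.133 (Tasp1), and ratios from -0.236 to 0.0902 (Tasp1) and -0.169 to 0.0207 (Sp1). The share of the shortest Bbs9 circle ran from -0.0589 to 0.015.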
